A study of Mus musculus with 4 samples.

Results

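The 6 actin genes of the mouse, Acta1, Actc1, Acta2, Actg2, Actb and Actg1, were examined in ventricles that lacked the nuclear receptor ERRα (gene Esrra) and in wild-type ventricles. The genes were taken from 8251 genes with a probe set of their own on the array, and 8 probe sets of 12422 that were not controls were annotated to 1 of the 6 genes and to no other gene. The gene family was chosen from knockout and wild-type signals of these same arrays, in which Acta1 and Acta2 had already been seen to differ between the genotypes. Their differences between genotypes are therefore given as a description, without a test. A further 6 control probe sets of β-actin are given apart.

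The study compared 2 ventricle samples labelled ERRa ko with 2 labelled ERRa wt, all taken at baseline, without pressure overload, to find baseline differences in gene expression. Each sample was hybridized to 1 one-colour Affymetrix oligonucleotide array, and the value for a probe set is a linear signal that the authors scaled by array. The strain, age and sex of the mice, the way the Esrra allele was made, and whether a sample held 1 or several animals are not given in the sources used here. Both probe sets of Esrra were lower on both knockout arrays. The stronger one gave 922.0 and 1050.2 in knockout against 8598.1 and 8038.5 in wild type, and the weaker one gave 83.6 and 55.2 against 2687.8 and 2828.1. Cardiomyocyte markers were present on every array, with Tnni3, cardiac troponin I, between 141450.3 and 176384.3 and Tnnt2, cardiac troponin T, between 85427.9 and 101480.9.

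Actin is the protein of thin filaments in muscle and of microfilaments in every other cell. Vertebrates make skeletal (Acta1) and cardiac (Actc1) α-actin for the sarcomere, vascular α-actin (Acta2) and enteric γ-actin (Actg2) for smooth muscle, and cytoplasmic β-actin (Actb) and γ-actin (Actg1) for the cytoskeleton. The proteins are nearly identical, but the genes are transcribed in different cells. In the adult ventricle Actc1 is the main sarcomeric actin, Acta1 and Acta2 belong to the early embryonic heart, Acta1 is re-expressed in hypertrophy, and Acta2 marks vascular smooth muscle and myofibroblasts.

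Many actin genes are transcribed under serum response factor, SRF, which binds the CArG box, an element of A and T bases held between paired C and paired G bases. The 250 bases before the annotated start were available for 4 of the 6 genes (RefSeq, build GRCm38.p6): Acta1, Actc1, Acta2 and Actg1. The sequences of the genes with the largest differences, and of Actc1, which differed little, are shown from 5′ to 3′ on the coding strand, which is the minus strand for all 3. Capitals mark CArG boxes, including those with 1 G or C among the 6 inner bases. They lie at chr8:123894776-123895025 for Acta1, chr19:34255374-34255623 for Acta2 and chr2:114052876-114053125 for Actc1.
Acta1: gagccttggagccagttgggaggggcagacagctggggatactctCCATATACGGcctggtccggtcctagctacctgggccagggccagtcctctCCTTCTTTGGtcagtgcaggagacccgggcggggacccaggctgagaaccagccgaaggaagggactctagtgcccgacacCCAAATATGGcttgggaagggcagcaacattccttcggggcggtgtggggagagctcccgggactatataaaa
Acta2: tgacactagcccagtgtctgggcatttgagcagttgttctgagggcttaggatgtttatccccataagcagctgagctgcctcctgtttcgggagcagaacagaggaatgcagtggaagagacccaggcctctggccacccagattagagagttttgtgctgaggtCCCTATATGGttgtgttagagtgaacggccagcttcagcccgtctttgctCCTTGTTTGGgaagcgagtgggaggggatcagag
Actc1: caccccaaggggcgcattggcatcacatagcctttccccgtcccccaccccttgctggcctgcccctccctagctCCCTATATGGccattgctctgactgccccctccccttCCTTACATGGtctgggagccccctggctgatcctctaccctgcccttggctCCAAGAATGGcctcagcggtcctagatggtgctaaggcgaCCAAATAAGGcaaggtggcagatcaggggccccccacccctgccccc

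Acta1 had 1 complete CArG box, 73 to 64 bases before the start, and 2 with a single G or C inside. Acta2 had no complete box in this window and 2 with a single G or C inside, at 84 to 75 and at 34 to 25 bases before the start. Actc1 had 1 complete box, at 47 to 38 bases, and 3 with a single G or C inside, and Actg1 had 1 complete box, at 90 to 81 bases. A complete box was found in 1.47% of 32851 windows of the same length and the single-substitution form in 7.24%. The binding element of ERR receptors, searched as TNAAGGTCA on both strands, was in none of the 4 actin windows and in 1.14% of all. CATTCC, the element of TEAD factors, occurred once in Acta1 and once in Acta2 on either strand, and in 12.6% of all windows. TATAAA occurred once in Acta1, in none of the other 3 and in 12.4% of all. The E-box CANNTG occurred 2 times in Acta1, 3 times in Acta2, 0 times in Actc1 and 1 time in Actg1, and in 66.2% of all. No 2 of these matches overlapped each other. They are matches of letters in these windows and say nothing of binding.

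Skeletal α-actin, Acta1, had a lower signal in knockout. Its only probe set gave 19417.4 and 18372.5 on the knockout arrays and 48308.6 and 31096.1 on the wild-type arrays. Both knockout arrays lay below both wild-type arrays, the knockout arrays lay 1.06-fold apart and the wild-type arrays 1.55-fold apart, so that the spread was mainly within wild type. Group means were 18895.0 ± 738.9 and 39702.3 ± 12171.1 (SD, n = 2 each). The difference of mean log2 signals was -1.04 (SE 0.29), or 2.05-fold lower in knockout. The nearest arrays of the 2 genotypes, wild-type replicate 2 and knockout replicate 1, stood 1.6-fold apart. Without wild-type replicate 1, the higher of the wild-type arrays, the log2 difference was -0.72, and without wild-type replicate 2 it was -1.35.

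Cardiac α-actin, Actc1, the main sarcomeric actin of the adult heart, had similar signals in both genotypes. The probe set with the family suffix (_f_at) gave 115750.4 and 121211.9 in knockout and 135004.3 and 111118.4 in wild type, and that with the suffix _i_at gave 108637.9 and 126299.5 against 118677.4 and 109848.4. On both probe sets the 2 groups overlapped. The log2 differences were -0.05 (SE 0.22) and 0.04 (SE 0.21), and over the other settings they ran from -0.19 to 0.09 and from -0.09 to 0.15. The suffixes mark probes shared by a gene family and an incomplete set of probes. How far they also detect the closely related Acta1 transcript was not tested, and neither was saturation at these high signals.

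Vascular smooth muscle α-actin, Acta2, had a higher signal in knockout. Its only probe set gave 18753.4 and 10915.5 in knockout and 4135.2 and 2908.6 in wild type. Both knockout arrays lay above both wild-type arrays, and the lower knockout array stood 2.64-fold above the higher wild-type array. The replicates differed within each genotype, by 1.72-fold in knockout and 1.42-fold in wild type. Group means were 14834.5 ± 5542.2 and 3521.9 ± 867.3 (SD, n = 2 each), with a log2 difference of 2.04 (SE 0.36), or 4.13-fold higher in knockout. Without knockout replicate 1, the higher of the knockout arrays, the log2 difference was 1.65, and without knockout replicate 2 it was 2.43. In whole ventricle, more cells that make a transcript and more of it per cell cannot be told apart, here as for Acta1.

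Enteric smooth muscle γ-actin, Actg2, did not share this pattern. Its probe set, also of the family type, gave 3940.4 and 3181.0 in knockout and 3525.6 and 3076.3 in wild type, so the groups overlapped (log2 0.10, SE 0.23).

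The cytoplasmic actins, which are often used as references of constant expression, overlapped between the genotypes on every probe set. For β-actin, Actb, the _f_at probe set gave 7011.6 and 4669.0 in knockout and 6073.0 and 7172.0 in wild type, and the _s_at probe set, whose probes are shared between transcripts, gave 8370.8 and 11259.0 against 9223.3 and 11769.9. Their log2 differences were -0.21 (SE 0.29) and -0.10 (SE 0.27). The order of the arrays was not the same on the 2 probe sets: knockout replicate 1 was the second highest on the first and the lowest on the other. For γ-actin, Actg1, the only probe set gave 14783.2 and 19348.0 against 16263.0 and 15488.1 (log2 0.09, SE 0.23), with the knockout arrays on either side of the wild-type arrays.

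**Figure D1:**
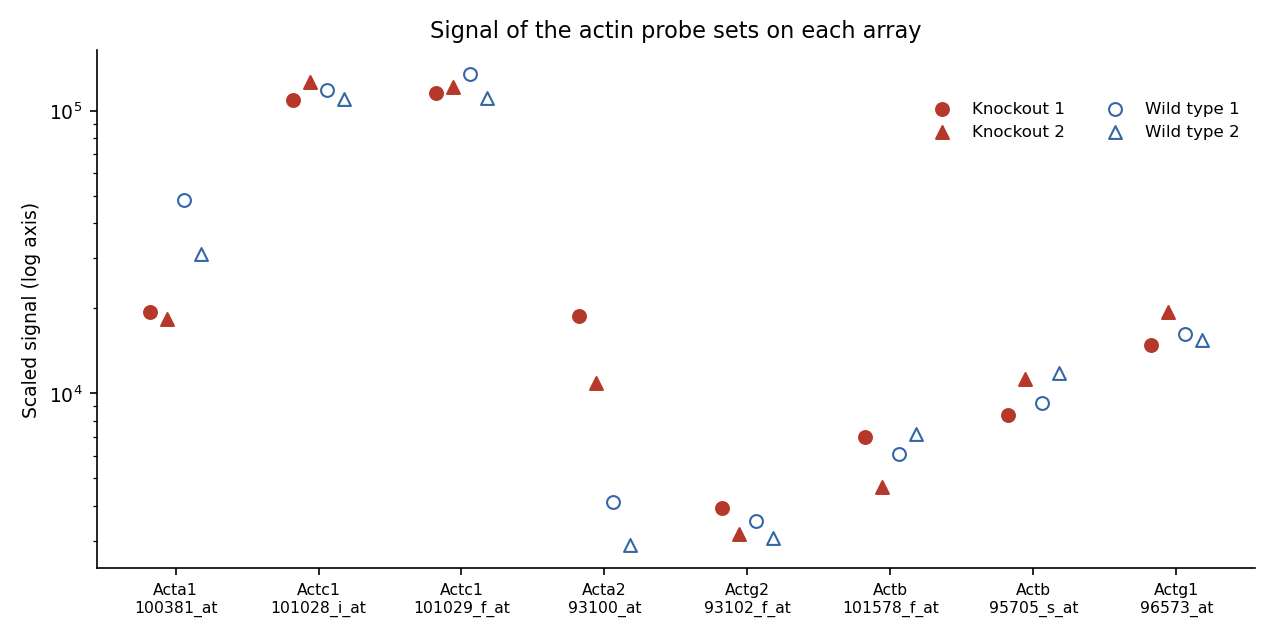
Scaled signal (log axis) of the 8 actin probe sets on each of the 4 arrays, with filled red symbols for knockout, open blue symbols for wild type, circles for replicate 1 and triangles for replicate 2. The genotypes separate for Acta1 (knockout 18372.5 and 19417.4, wild type 31096.1 and 48308.6) and for Acta2 (knockout 10915.5 and 18753.4, wild type 2908.6 and 4135.2) and overlap for the other 6 probe sets. Heights of different probe sets are not comparable.

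All 8 probe sets passed the filter on low signal, and the lowest signal of any was 2908.6. By a count without a model, a probe set was called when its group means differed at least 1.5-fold and no knockout array lay within the range of the wild-type arrays. Of the 8, 1 was called higher in knockout (Acta2) and 1 lower (Acta1), where 6.84% of the 7453 probe sets kept were called higher and 4.20% lower. The genes had been chosen on this contrast, so nothing is read from these counts. Across the array, 62.0% of the called probe sets were higher in knockout, against 48.2% after quantile normalization and 38.1% after scaling to equal medians, which moved the median log2 difference of all probe sets from 0.03 to -0.10. A limma fit over all kept probe sets called 1 of them at an adjusted p under 0.05, or 0.0134%, and that one detected Esrra. At an unadjusted p under 0.05 there were 506.

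**Figure D2:**
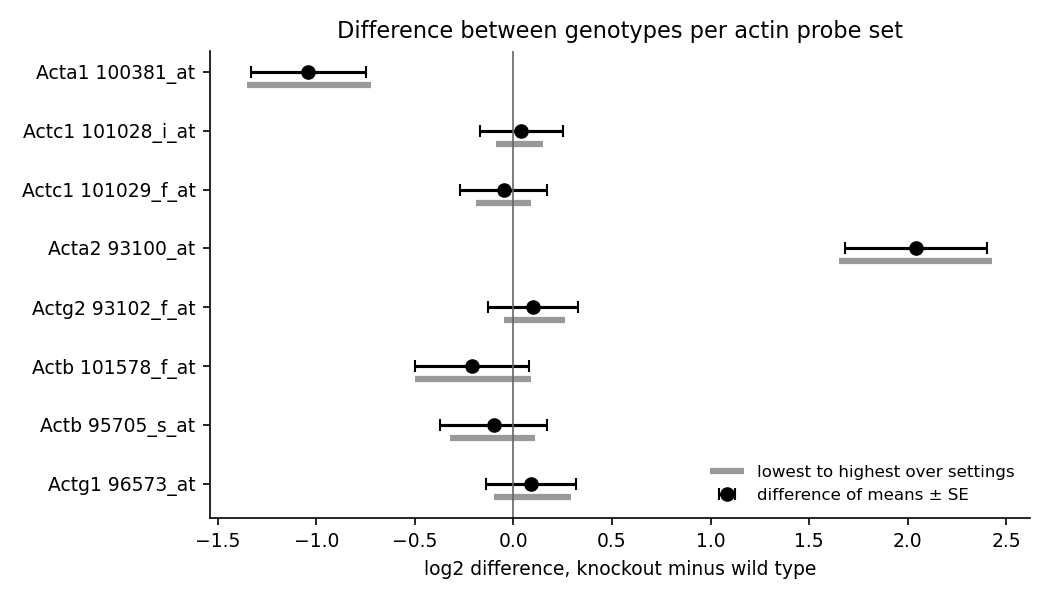
Difference in mean log2 signal, knockout minus wild type, for each actin probe set (points, with the SE from the limma fit as bars) and, in grey, its lowest to highest value over all settings tried, the left-out arrays included. Acta1 ran from -1.35 to -0.72 and Acta2 from 1.65 to 2.43, whereas the grey bars of the other 6 probe sets all cross 0.

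The 6 probe sets of Actc1, Actg2, Actb and Actg1 lay between -0.21 and 0.10. Among the 1491 most strongly detected probe sets, those with a mean signal of at least 3603, the median log2 difference was -0.05 and the median SD between replicates was 0.16. The SD between replicates was 0.47 for Acta2 and 0.32 for Acta1, and 48 and 177 of the 1491 had a larger one. Of the same 1491, 2 had a log2 difference at or above that of Acta2, itself included. For Acta1, 9 had one at or below, itself included. The genes had been chosen on this contrast, so nothing is read from these ranks.

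**Figure D3:**
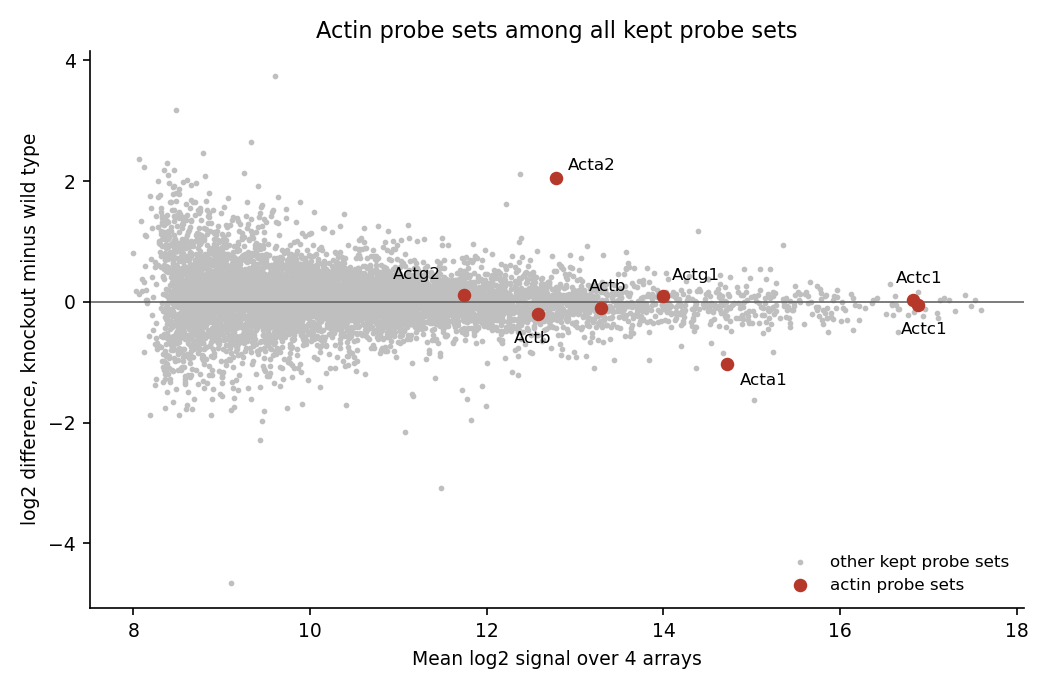
Log2 difference, knockout minus wild type, against mean log2 signal over the 4 arrays for 7453 kept probe sets (grey) with the 8 actin probe sets in red. Acta2 (2.04) lies above and Acta1 (-1.04) below most probe sets of similar signal, and the other 6 lie between -0.21 and 0.10. The genes had been chosen on this contrast, so nothing is read from these positions.

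Ratios within an array do not move with the scaling of that array, so the unequal differences were also followed relative to Actc1 (its _f_at probe set). The log2 ratio of Acta2 to Actc1 was -2.63 and -3.47 in knockout and -5.03 and -5.26 in wild type, a difference of 2.09 (replicate SD 0.44). The log2 ratio of Acta1 to Actc1 was -2.58 and -2.72 in knockout and -1.48 and -1.84 in wild type, a difference of -0.99 (replicate SD 0.19). Neither ratio overlapped between the genotypes, and with the other Actc1 probe set the differences were 2.01 and -1.07. The log2 ratio of Acta2 to Acta1 was -0.05 and -0.75 in knockout and -3.55 and -3.42 in wild type, an 8.47-fold difference. The ratios of Actg2, Actb and Actg1 to either Actc1 probe set overlapped between the genotypes, with differences from -0.24 to 0.15. These ratios show unequal differences and compare no levels between genes, since each probe set has its own response.

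The array also carries control probe sets for the 5′, middle and 3′ parts of the β-actin transcript. The 3′ set gave 58950.4 and 60733.3 in knockout and 59370.5 and 41267.1 in wild type, and the middle set gave 37978.2 and 37554.9 against 42540.8 and 25349.6. The 5′ set gave 40914.3 and 49355.6 against 57343.6 and 37496.1. On each of the 3, wild-type replicate 2 was the lowest array and the genotypes overlapped. The ratio of 5′ to 3′ signal, a measure of the length of the labelled RNA, was 0.694 and 0.813 in knockout and 0.966 and 0.909 in wild type. The ratio of middle to 3′ signal was 0.644 and 0.618 against 0.717 and 0.614, which overlapped. The 5′ to 3′ ratio thus moved with the genotype beside the differences in Acta1 and Acta2, and its part in them was not tested. The 3 matching control sets for the opposite strand gave 95.3 to 449.1 on all arrays.

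Smooth muscle markers did not accompany Acta2 as a group. Of 19 such genes, 13 had a probe set of their own and 12 passed the filter. Of these, 5 had a higher and 7 a lower mean in knockout, and the median log2 difference was -0.01, against 0.01 for all 5653 genes with a kept probe set. The summed signal of the 12 was 28947 and 28976 in knockout and 26756 and 32970 in wild type, and none was at 0. By the count without a model, 1 gene was called higher and 0 lower, where 6.17% of genes were called higher and 4.19% lower. That gene was Myl9, the regulatory light chain of smooth muscle myosin, with 2499.8 and 3146.5 in knockout against 1377.7 and 1559.6 (log2 0.94, SE 0.23, limma adjusted p = 0.694). Of the 12, 9 overlapped between the genotypes, a count given without the share over all genes, so nothing is read from it. Among the defining genes, picked with their values known, Myh11, smooth muscle myosin, gave 906.4 and 957.4 against 732.3 and 1192.3, and Tagln, the actin-binding protein SM22, gave 2648.9 and 2182.3 against 2846.4 and 2276.9. The pericyte genes Kcnj8 and Rgs5 had log2 differences of -0.46 and -0.40, and Des, desmin, of -0.28 (limma adjusted p 0.787 to 0.829).

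Of 16 markers of fibroblasts and myofibroblasts, the other cells known for Acta2, 13 passed the filter. Their median log2 difference was 0.20, with 8 higher and 5 lower means. Of the 13, 2 were called higher and 0 lower, where 6.17% and 4.19% of all genes were. Lum, the matrix proteoglycan lumican, gave 5104.4 and 6195.7 in knockout against 2791.1 and 3809.1, and Col1a1, a chain of type I collagen, gave 4802.4 and 6780.9 against 3353.7 and 4080.4 (limma adjusted p = 0.694 and 0.748); on another Col1a1 probe set the log2 difference was 0.23. Col3a1 and Dcn had log2 differences of 0.53 and 0.33 (limma adjusted p = 0.752 and 0.816). The summed signal of the 13 was 90675 and 94151 in knockout and 67686 and 78294 in wild type, without overlap, and none was at 0. Most of each sum came from Dcn alone, with 58033.6 and 58177.4 against 42239.9 and 50324.1. Postn, which marks activated fibroblasts and was picked with its values known, overlapped, with 829.4 and 1027.0 against 675.2 and 1291.2. Tgfb1, S100a4 and Vim, also picked with their values known, had lower means with overlap (log2 -0.72, -0.26 and -0.22). The part of these cells in the Acta2 difference was not tested.

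Atrial tissue carried with the ventricles would bring transcripts of its own. Of 13 atrial markers, 10 passed the filter, 7 of them were called higher in knockout and 1 lower, where 6.17% and 4.19% of all genes were, and the median was 0.76. The atrial light chain Myl4 gave 2200.5 and 3663.3 against 1052.0 and 1493.7 (log2 1.18, SE 0.35, limma adjusted p = 0.694), and 0.58 on a second probe set. Nppa, atrial natriuretic peptide, gave 12668.8 and 9602.6 against 7979.8 and 5604.7 (limma adjusted p = 0.744). Stard10 and Dkk3 had log2 differences of 1.06 and 0.67 and Clu of -0.97 (limma adjusted p = 0.694 for each). The summed signal of the 10 was 55009 and 53762 in knockout and 43609 and 39736 in wild type, without overlap, and none was at 0. Its part in the Acta2 and Acta1 differences was not tested.

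Genes listed for the fetal and hypertrophy programme, to which Acta1 is usually assigned, did not all differ in one direction. All 14 passed the filter, 4 had a higher and 10 a lower mean in knockout, and the median was -0.06. Of these, 3 were called higher and 2 lower, where 6.17% and 4.19% of all genes were. Those called higher were Myl4 and Nppa, given above (log2 1.18 and 0.72), and Slc2a1, and those called lower were Fhl1 and Rcan1. The list also held Myh6 and Atp2a2, genes of the adult heart (log2 -0.17 and -0.07). Its counts, median and sum therefore give no direction for the programme. Fhl1, a muscle LIM protein, gave 3839.4 and 3086.8 in knockout against 10390.2 and 6060.3 (log2 -1.20, SE 0.34, limma adjusted p = 0.694). Rcan1, an inhibitor of calcineurin, gave 2301.2 and 2589.9 against 12019.3 and 3432.7 (log2 -1.40). Slc2a1, the glucose transporter GLUT1, gave 736.5 and 349.0 against 187.4 and 218.2, and Tnni1, slow skeletal troponin I, gave 3070.8 and 2573.0 against 1924.3 and 1894.4 (limma adjusted p = 0.694 and 0.730). Only on knockout replicate 1 did Slc2a1 lie above the filter level of 350.6, so nothing is read from its call. Rcan1 and Atp2a2, and Nppb, Ankrd1 and Xirp1 below, were picked with their values known.

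Wild-type replicate 1 had the highest signal of the 4 arrays for Acta1 and also for several of these genes. Nppb, brain natriuretic peptide, gave 87182.5 there against 20537.3, 18469.8 and 14065.2 on the other arrays. Ankrd1, a stress-induced ankyrin protein, gave 72967.8 there against 50156.2, 58059.3 and 57549.3, and Xirp1, an intercalated disc protein, 12826.0 against 7496.2, 6888.3 and 6797.7. In all, 5 of the 14 genes were highest on that array, or 35.7%, against 23.3% of all kept probe sets. The share was larger for the endothelial markers, 4 of 9 or 44.4%. Without that array the log2 difference went from -0.85 to 0.47 for Nppb, from -1.40 to -0.49 for Rcan1, from -1.20 to -0.82 for Fhl1, from -0.38 to 0.08 for Xirp1, from -0.26 to -0.09 for Ankrd1 and from -1.04 to -0.72 for Acta1. Each of these genes was highest on that array, so leaving the array out had to raise its difference. Nothing is read from the shared direction. The summed signal of the list, Myh6 and Atp2a2 included, was 285556 and 340484 in knockout and 424271 and 331043 in wild type.

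**Figure D4:**
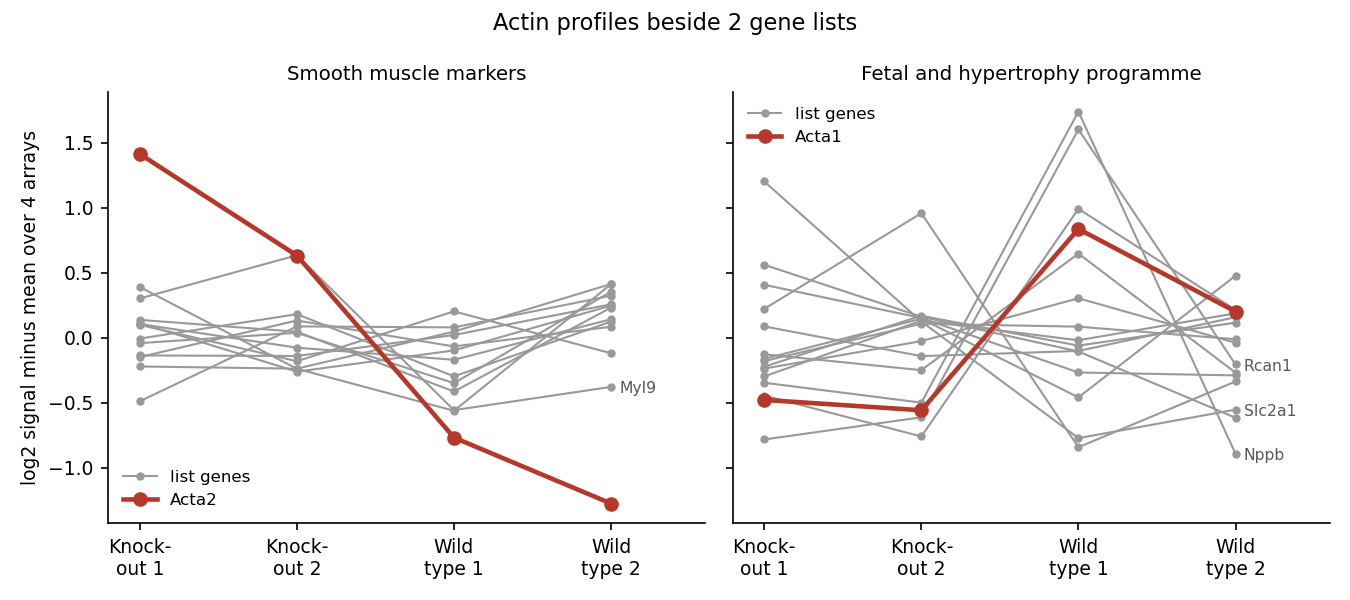
Log2 signal minus the mean over the 4 arrays, for Acta2 with 12 smooth muscle markers (left) and Acta1 with 14 genes of the fetal and hypertrophy list, Myh6 and Atp2a2 included (right). Lines only join the arrays of 1 gene. Acta2 and Myl9 lie higher on both knockout arrays than on both wild-type arrays, Kcnj8 and Des lie lower, and the other smooth muscle markers overlap. Acta1 has its highest value on wild-type replicate 1, as Nppb and Rcan1 do.

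Skeletal muscle carried with the hearts would bring Acta1 with it. Of 19 skeletal muscle markers 13 passed the filter, with 10 higher and 3 lower means in knockout, and their median was 0.20 (0.07 after scaling to equal medians). Of the 13, 3 were called higher and 0 lower, where 6.17% and 4.19% of all genes were. Myl1, a light chain of skeletal and atrial muscle, gave 10838.0 and 6418.8 in knockout against 4344.3 and 1705.9 (log2 1.62, SE 0.55). Myod1, the muscle regulatory factor, gave 1585.1 and 1536.7 against 879.2 and 1054.6, and Mylpf, a fast skeletal light chain, 772.6 and 870.9 against 534.7 and 620.0 (limma adjusted p 0.694 to 0.745 for the 3). The third called gene, Pvalb, the calcium buffer parvalbumin, gave 6744.2 and 3715.1 against 3126.4 and 3063.1. Lower without overlap were Atp2a1, the calcium pump of fast muscle, with 624.9 and 553.5 against 774.8 and 770.4, and Myog, myogenin, with 629.3 and 566.5 against 788.8 and 672.0 (limma adjusted p 0.787 to 0.829 for the 3, which were picked with their values known). The summed signal was 32465 and 24440 in knockout and 19737 and 17575 in wild type, none at 0, and the part of skeletal muscle in the Acta1 difference was not tested.

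Partners of actin in the thin filament and Z-disc had lower means in 14 of 19 genes, with a median of -0.10. In either direction 0 were called, where 6.17% of all genes were called higher and 4.19% lower. Capzb, the β subunit of the capping protein at the barbed end, gave 14587.5 and 15947.8 in knockout against 10917.2 and 9633.0 (log2 0.57, SE 0.21), and 0.23 on another probe set. Mybpc3, cardiac myosin-binding protein C, gave 90421.7 and 83132.3 against 126446.5 and 118462.0 (log2 -0.50, SE 0.20). Nrap and Xirp1, both actin-binding proteins of the myofibril, had -0.33 and -0.38 (limma adjusted p 0.722 to 0.855 for the 4).

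Proteins that bind actin monomers or sever filaments had a median of 0.10 over 17 genes. Of these, 1 was called higher and 1 lower, where 6.17% and 4.19% of all genes were. Dstn, the depolymerizing factor destrin, gave 14341.8 and 16743.8 in knockout against 9304.0 and 10479.8 (log2 0.65, SE 0.21), and Gsn, the severing protein gelsolin, gave 38828.8 and 45736.4 against 27125.9 and 31027.2 (log2 0.54, SE 0.22). Coro1a, a coronin of leukocytes, gave 589.1 and 421.2 against 1300.2 and 973.2 (log2 -1.18, SE 0.29). Wdr1, a cofactor of cofilin, had -0.39 (limma adjusted p 0.694 to 0.791 for the 4).

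Nucleators and the Arp2/3 complex, which start new filaments, had a median of -0.12 over 11 genes and 0 called in either direction. For this and the next lists, the shares over all genes were 6.17% called higher and 4.19% lower. Evl, Cttn, Vasp and Arpc1a had the lowest p, with log2 differences of -0.55, -0.35, 0.25 and -0.23 (limma adjusted p 0.814 to 0.873). Crosslinkers and membrane anchors had a median of 0.05 over 15 genes, with 1 called higher and 0 lower. That gene was Actn1, non-muscle α-actinin, with 2396.3 and 2787.7 in knockout against 1535.6 and 1635.0 (log2 0.71, SE 0.21, limma adjusted p = 0.694), and 0.21 on a weaker probe set that passed the filter. Ezr, Sptan1 and Lasp1 had 0.35, -0.32 and 0.29 (limma adjusted p = 0.829 for each). The chaperonin CCT and prefoldin, which fold new actin, had a median of -0.01 over 13 genes, with 1 called higher and 0 lower. Its Cct6b, a testis form of a CCT subunit, gave 789.6 and 663.5 against 508.4 and 205.8, and Pfdn5, Pdcl3 and Cct7 had 0.57, 0.56 and -0.33 (limma adjusted p 0.745 to 0.811 for the 4).

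SRF and its cofactors had a median of 0.07 over 13 genes, with 2 called higher and 0 lower, where 6.17% and 4.19% of all genes were. Mef2a, a muscle transcription factor, gave 6096.6 and 7275.9 in knockout against 3798.6 and 4635.0 (log2 0.67, SE 0.23), and Rock1, a kinase that promotes actin assembly, gave 1235.5 and 1429.5 against 705.6 and 1067.6 (log2 0.61, SE 0.29). Rhoa, the GTPase above it, and Fhl2 had -0.28 and -0.37 (limma adjusted p 0.705 to 0.829 for the 4), but weaker Rhoa probe sets had 0.40 and 0.05. Mrtfa, the SRF cofactor that binds actin monomers, overlapped, with 1060.2 and 447.1 against 692.9 and 658.3, and was picked with its values known.

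Known SRF targets other than actins had a median of -0.03 over 18 genes, 4 called higher and 0 lower. The 4 were Myl9 and Nppa, given above, and Fos and Junb, early response genes. Fos gave 869.9 and 524.4 in knockout against 153.4 and 212.6 (log2 1.90, SE 0.35, limma adjusted p = 0.656), and Junb 1440.1 and 1349.0 against 770.1 and 935.9 (log2 0.72, SE 0.22, limma adjusted p = 0.694), with 0.46 on a weaker probe set. Both wild-type signals of Fos lay below the filter level of 350.6, so it passed through the knockout arrays and nothing is read from its call. A Fos probe set that did not pass the filter overlapped, with 0.18. Lists of blood and immune, endothelial and cardiomyocyte markers had medians of 0.09, -0.06 and -0.11 over 8, 9 and 7 genes, with 0 called in either direction. The lowest p among them belonged to Cd52, Tyrobp, Slc4a1 and Lyz2 (log2 0.30, -0.43, -0.27 and 0.34), to Tie1, Cdh5, Eng and Pecam1 (-0.57, -0.54, -0.17 and -0.27) and to Tnnt2, Actn2, Tnni3 and Myh6 (-0.20, 0.41, -0.16 and -0.17), with limma adjusted p of 0.745 to 0.920. Over all 15 lists, limma called 0 of 167 genes at an adjusted p under 0.05, with 18 at an unadjusted p under 0.05, 15 of them higher. By the count without a model, 20 of the 167 were called higher and 4 lower, where 349 and 237 of all 5653 genes were, or 6.17% and 4.19%. Scaling to equal medians kept 5656 genes and put their median at -0.11. It turned the medians of the monomer-binding, crosslinker, SRF cofactor and blood lists to -0.03, -0.07, -0.06 and -0.03. Over all 14 alternatives the medians of 5 lists kept their sign (skeletal muscle, fibroblast, atrial, endothelial and Arp2/3), and those of the other 10 turned or reached 0 in at least 1. Without knockout replicate 1 the medians of the thin filament, fetal, cardiomyocyte, SRF target and CCT lists were 0.04, 0.06, 0.05, 0.05 and 0.02. Without knockout replicate 2 those of the SRF cofactor, blood, smooth muscle, SRF target and CCT lists were -0.12, -0.15, 0.05, 0.03 and 0.01, and that of the monomer-binding list 0.00. Without wild-type replicate 1 those of the monomer-binding, CCT and SRF target lists were -0.07, 0.09 and 0.10. Without wild-type replicate 2 those of the SRF target, smooth muscle, SRF cofactor and blood lists were 0.18, 0.12, -0.01 and -0.05.

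The probe sets whose profile over the 4 arrays was nearest to each differing actin were found by Euclidean distance between log2 signals centred on each probe set's mean, among 6689 kept probe sets of other single genes. Nearest to Acta1 were Hoxd9, Epor, P2ry2, a second Fhl1 probe set and Cryz, at distances of 0.14 to 0.20. The Fhl1 probe set gave 1998.4 and 1664.0 in knockout and 4178.1 and 2970.9 in wild type, and Hoxd9 340.5 and 293.3 against 797.6 and 479.3. Nearest to Acta2 were Cd276, Lhx1, Acvr1b, Saa2 and Htr1b, at distances of 0.30 to 0.50. Cd276 gave 954.5 and 470.7 in knockout and 220.5 and 166.2 in wild type. All wild-type signals of these neighbours of Acta2 lay below the filter level of 350.6, so they were kept through the knockout arrays. Among the neighbours of Acta1, Hoxd9, Epor and P2ry2 lay below that level on both knockout arrays and were kept through wild type. Nothing is read from such likeness.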

How the data were processed

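The deposited values are intensities, 1 linear signal per probe set and array, which the authors had scaled to a common trimmed mean of 1501.2 (2% left out at either end). The labels' protocols describe biotin-labelled cRNA primed with oligo-dT. The software, summary method and genome build are not given in the sources used here. Groups follow the genotype named in each title. No label says that samples came from separate mice, so p-values may reflect technical spread alone. The number of arrays limits precision.

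Of 10855 probe sets with 1 gene symbol in the platform annotation, 10839 matched RefSeq (GRCm38.p6), which gave current names; 396 had several symbols and 1237 none. The 66 control probe sets and those with a mean under 350.6 (40th percentile) were left out, signals below 109.9 (20th percentile) were raised to it, and log2 values were fitted with limma 3.58.1 in R 4.3.3 (Benjamini-Hochberg, threshold 0.05) after the step had been tested on simulated data. With 2 arrays a side, the smallest two-sided p of an exact permutation test is 0.333, so none was run. For lists, each gene was represented by its strongest probe set. Members and lists were chosen with earlier results of these data known. Named were all actin probe sets, list genes past the threshold or else the 4 of lowest p, and the 5 nearest profiles of Acta1 and Acta2; genes outside this rule are marked as picked with their values known. Alternatives changed the scaling, floor, filter, probe sets, prior, pairing and arrays.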

Additional observations from a re-analysis of the deposited data

How the results depend on the processing

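Over 14 alternatives each, Acta2 had a log2 difference of 1.65 to 2.43 and Acta1 one of -1.35 to -0.72; relative to Actc1 they ran from 1.67 to 2.52 and from -1.17 to -0.81 over 13, since no Actc1 probe set was left without suffixed probe sets. The other actin probe sets ran from -0.50 to 0.29. The count of limma calls, 1 in the report, was 0 with the floor at the 5th or 40th percentile and without a filter. It was also 0 without suffixed probe sets, with gene means and with the replicate block. The filter at the 60th percentile or the trend and robust prior gave 2. The called probe set of Esrra has a suffix, so without suffixed probe sets it was itself left out. With gene means it was averaged with the stronger Esrra probe set. Otherwise the cause was not tested. Probe sets called higher and lower without a model numbered 324 and 527 after median scaling, 959 and 530 without a filter and 183 and 144 with the filter at the 60th percentile, which change the probe sets counted, and 796 to 862 and 565 to 661 without each array, when overlap is rarer by construction. Of the list genes, 12 were called higher and 8 lower after median scaling; without each array 21 to 28 were higher and 8 to 12 lower. The labels do not say that the replicate numbers pair the arrays. Deviations of same-numbered arrays correlated at 0.0113 over 7453 probe sets, which cannot show whether samples were paired. In this balanced design the replicate block cannot move a log2 difference, which stayed at -1.04 for Acta1 and 2.04 for Acta2; it moved their SE from 0.29 to 0.27 and from 0.36 to 0.24. With 2 arrays per genotype, leaving one out rests its group on a single array, which is assumed to vary like the others.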

Other observations

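Genes of actin-related proteins, taken by symbol, were measured on the same arrays. Actr3, a subunit of the Arp2/3 complex, gave 7783.8 and 7667.1 in knockout and 8238.3 and 7607.3 in wild type (log2 -0.04). Actr6 and Actl6a, subunits of chromatin remodelling complexes, had log2 differences of 0.08 and 0.21 with overlapping groups. Actl7b, known from the testis, gave 898.4 and 331.8 in knockout against 287.8 and 209.1, without overlap but with knockout arrays 2.71-fold apart. Only on knockout replicate 1 did it lie above the filter level of 350.6. Actl6b and both Actr1a probe sets lay below the filter on low signal.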
